A study of Drosophila melanogaster with 12 samples.

Results

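The eye pigment genes examined here are scarlet (st), brown (bw), cinnabar (cn), sepia (se) and purple (pr), 5 of the 6 genes that were looked up by symbol in the array's probe-to-gene table. They are represented by 6 probe sets out of 18769 that are not controls, since bw has 2. The gene v was not on that table and was not analysed here. RNA was measured on Affymetrix arrays in eye discs of Drosophila melanogaster larvae of the last larval stage, with 3 arrays, called biological replicates by the labels, for each of 4 genotypes and 12 arrays in all. Canton S is a wild-type laboratory strain. The rbf120a group carried a mutant allele of Rbf, the fly retinoblastoma gene, the wtsX1Lats group one of the Hippo pathway kinase gene warts, and the rbf120a wtsX1Lats group, called the double mutant below, carried both. By the series' design text the discs were mosaics made mostly of mutant cells. The labels give no other allele, no sex, no number of animals and no source of recombinase, and they do not say whether the mutant stocks and Canton S share a background.

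The red-brown eye of the fly holds pigments of 2 families. Ommochromes are brown pigments made from tryptophan, and drosopterins are red pteridines made from GTP. Both are stored in granules of the pigment cells, and most of the colour appears in the pupa, after the larval eye disc has been patterned. Precursors enter the granules through half-transporters of the ABC family, which work as pairs with the white protein: scarlet for the ommochromes and brown for the pteridines. Ommochrome precursors are also made in the larval fat body and Malpighian tubules. Mutant alleles of st, bw, cn, se and pr are old visible markers in fly stocks, and an array reads RNA and not an allele, so whether any of these stocks carried such a marker was not tested.

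The signals of 11 eye disc genes were examined in the labelled tissue. Each had a probe set with a mean log2 signal above every probe set of the odorant receptor genes, the reference for dim signal, in every genotype. The lowest of these was sens, at 7.31 in wtsX1Lats. This bar is low, as only 9156 of all 18769 probe sets had a mean over the 12 arrays at or below it. Marker probe sets of muscle (9.37 to 12.18 in group means), trachea (6.57 to 13.21) and antennal disc (6.85 to 11.02) also lay above it. Signal above the bar thus does not show which tissues the samples held. Among the arrays, wtsX1Lats replicate 3 stood apart, in that its 3' control probes exceeded the 5' ones by 1.70 (actin), 1.81 (GAPDH) and 1.90 (eIF-4A) on the log2 scale, against at most 0.82, 1.43 and 0.95 elsewhere. The labels mark the array of rbf120a replicate 3 as a repeat. The median SD of a probe set within a genotype ran from 0.08 (double mutant) to 0.14 (wtsX1Lats).

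Of the 6 probe sets, only that of st passed the test between any genotypes. Its signal was lower in all 3 mutant groups than in Canton S, by 1.43-fold to 1.51-fold in signal, and no difference between the mutant groups passed. Its Canton S level was just above the range of dim reference genes. Its mutant levels lay in that range and cannot be told from background. These folds are thus differences of signal and give no size for the change in RNA. The signals of bw, cn and se were dim in every group, and pr was bright, and none of these passed the test in any comparison.

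The levels set the frame for the changes, and they are on the log2 scale of the deposited table, on which a difference of 1 is a doubling of signal. Signals of different probe sets are not compared as amounts of RNA, because probes differ in brightness. As a reference for dim signal, the 62 probe sets of odorant receptor genes, which serve the adult sense organs, had group means with a median of 4.57 and a maximum of 5.73 in Canton S. Over the 12 arrays, 5 of the 6 pigment probe sets had a mean at or below the highest odorant receptor mean of 5.71, as did 9156 of all 18769 probe sets. Detection calls were not used here, so a dim value cannot be told from background. The plot of dim pigment genes beside odorant receptor genes shows these positions.

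**Figure D1:**
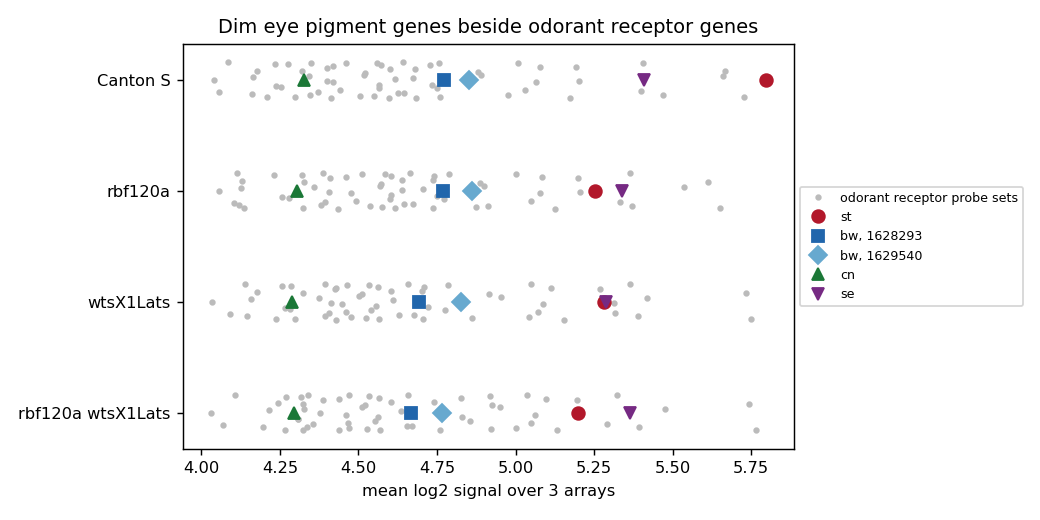
Mean log2 signal over 3 arrays (horizontal axis) of the dim pigment probe sets (coloured) and of 62 odorant receptor probe sets (grey, moved up and down for legibility), by genotype. In Canton S the mean of st, 5.80, lies to the right of every grey point, and in the 3 mutant groups it lies among them.

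The ommochrome transporter gene st (arm 3L) was at 5.72, 5.80 and 5.87 in replicates 1, 2 and 3 of Canton S. It was at 5.28, 5.31 and 5.17 in rbf120a. It was at 5.31, 5.31 and 5.22 in wtsX1Lats. It was at 5.13, 5.18 and 5.29 in the double mutant, so every mutant array lay below every Canton S array, while the 3 mutant groups overlapped. Of all probe sets, 18.3%, 17.3% and 23.6% had groups that did not overlap with Canton S in rbf120a, wtsX1Lats and the double mutant. The means were 5.80 ± 0.08 (SD, n = 3), 5.25 ± 0.07, 5.28 ± 0.05 and 5.20 ± 0.08 in the same order. In Canton S st stood above all 62 odorant receptor probe sets and at percentile 49.8 of all probe sets. In the mutant groups it stood above 55 or 56 of the 62, at percentiles 39.3 to 40.9. The st fall is thus a fall from just above the odorant receptor signals into their range. Canton S st was itself dim, as the highest odorant receptor mean there was 5.73 and st replicate 1, at 5.72, lay below it. Whether st was above background in Canton S was not tested.

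In the comparison of rbf120a with Canton S, st fell by 0.54 ± 0.08 (SE) on the log2 scale (adjusted p = 0.00197, limma, Benjamini-Hochberg over all 18769 probe sets). It was the 1 called probe set of the 6, where 2.98% of all probe sets were called (1.48% lower), an adjusted p under 0.05 being a call throughout. In wtsX1Lats the fall was 0.52 ± 0.08 (adjusted p = 0.00297), again 1 of 6 against 4.12% of all probe sets (2.53% lower). This st call in wtsX1Lats held without any 1 array (without wtsX1Lats replicate 3 the fall was 0.49, adjusted p = 0.00811) and ended under 2 alternatives. The adjusted p was 0.0560 in a limma fit over these 2 groups alone and 0.0758 without wtsX1Lats replicates 1 and 3 (fall of 0.49), and it ranged from 0.00114 to 0.0758 over 19 alternatives. In the double mutant st fell by 0.60 ± 0.08 (adjusted p = 0.000957), 1 of 6 against 4.07% (2.39% lower). These comparisons share the Canton S arrays, so a low or high control would move all of them together. Of all probe sets, 0.874% (164) were called lower in all 3. In whole discs, fewer cells of a type and less RNA per cell cannot be told apart. Whether the mutant stocks share a background with Canton S is not stated. For st too, an effect of the alleles and a difference between stocks therefore cannot be told apart.

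**Figure D2:**
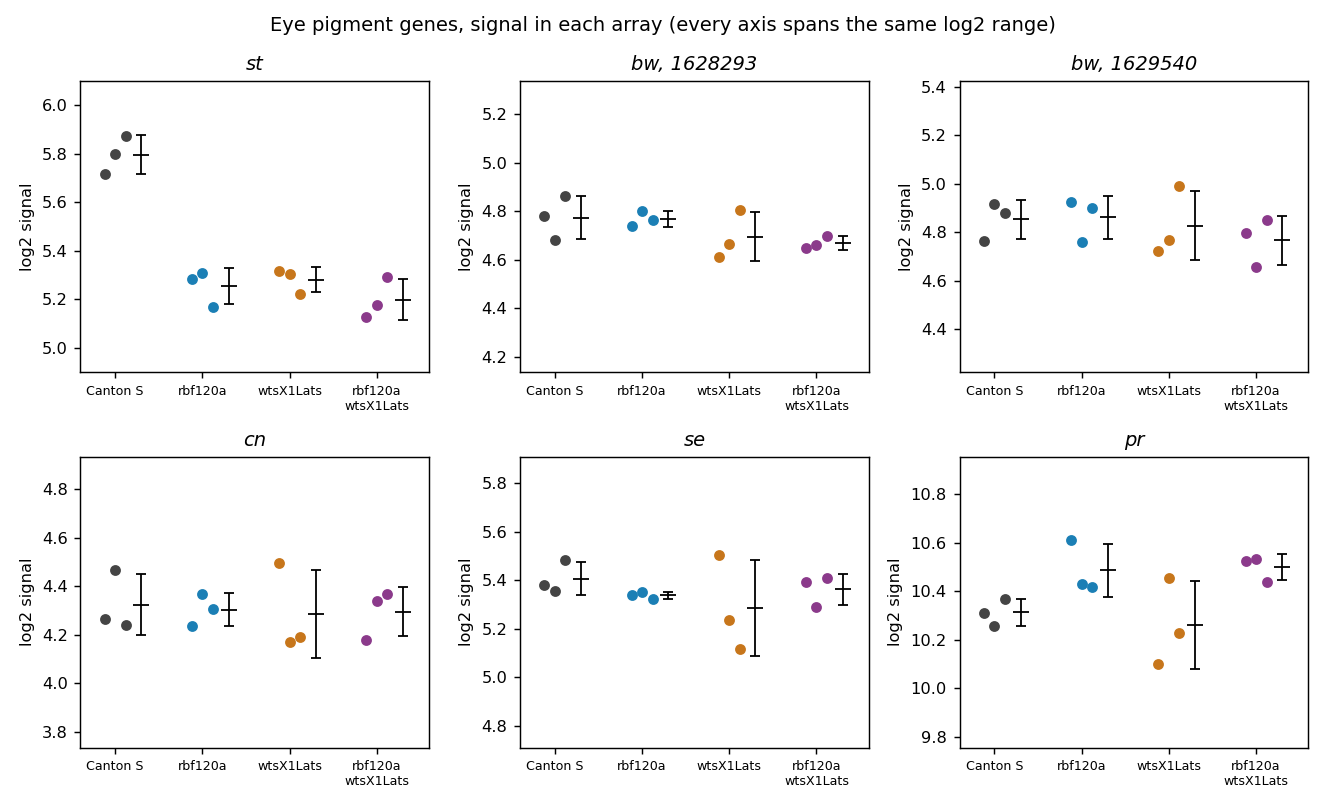
Log2 signal (vertical axis) of the 6 pigment probe sets in each array, by genotype; points from left to right are replicates 1 to 3, and the bar beside them is the mean with its SD. For st the Canton S arrays, at 5.72 to 5.87, lie above all 9 mutant arrays, and in the other panels the genotypes lie close together.

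Among the mutant groups the order of st was wtsX1Lats, rbf120a, double mutant, and no neighbours in that order differed beyond their spread. The double mutant minus rbf120a was -0.06 (95% interval -0.23 to 0.12), the double mutant minus wtsX1Lats was -0.08 (-0.26 to 0.09) and rbf120a minus wtsX1Lats was -0.03 (-0.20 to 0.14). The change with both alleles was smaller than the sum of the single changes by 0.46 ± 0.11 (SE). This interaction, the change from wtsX1Lats to the double mutant minus the change from Canton S to rbf120a, did not pass (adjusted p = 0.104, and from 0.0528 to 0.465 over the 18 alternatives). Of all probe sets, 0.842% passed for the interaction. The single mutant means of st, 5.25 in rbf120a and 5.28 in wtsX1Lats, lay among the odorant receptor signals. A further fall in RNA might not be seen there, so the 0.46 is a difference of signal. It gives no size for an interaction in RNA.

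Genes next to st on 3L were not called. The 2 nearest measured genes on each side, CG43373 and aos before it and CG13033 and CG4229 after it, had 0 calls against Canton S over their 5 probe sets. The nearest, CG43373, had changes between -0.10 and 0.04 over its 2 probe sets and the 3 mutant groups. The Egfr inhibitor gene aos was at -0.47 ± 0.18 (SE; adjusted p = 0.196) in wtsX1Lats, and CG13033 at -0.80 ± 0.38 (adjusted p = 0.385) in the double mutant.

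The probe sets whose pattern over the 12 arrays was most like that of st belonged to CG13840 (Pearson r = 0.970), RFeSP (0.963), which encodes the Rieske iron-sulphur protein of the respiratory chain, and CG6912 (0.961). They were chosen by this likeness, so their values are a description. RFeSP, on 2L, went from a mean of 9.53 in Canton S to 4.59, 4.61 and 4.58 in rbf120a, wtsX1Lats and the double mutant. CG13840, on 3R, went from 7.03 to 4.97, 4.95 and 4.82. CG6912, also on 3R, went from 8.16 to 4.70, 4.87 and 4.81. All 3 thus share with st a higher level in Canton S than in every mutant group, with much larger differences. Their Canton S signals were bright where that of st was dim.

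Markers of other tissues were examined beside st, and their part in its change was not tested. Of 9 Malpighian tubule probe sets, 1 was called in each mutant group, lower. In rbf120a, wtsX1Lats and the double mutant, 1.48%, 2.53% and 2.39% of all probe sets were called lower. The tubule call was NtR, which went from 8.08 in Canton S to between 6.85 and 7.07 in the mutant groups. The tubule list's mean in single arrays was 5.99 to 6.16 for Canton S, 5.84 to 6.01 for rbf120a, 5.88 to 5.98 for wtsX1Lats and 5.87 to 5.91 for the double mutant. The tubule phosphatase gene Alp4 was at 4.80 to 4.87, inside the odorant receptor range, and Uro and CapaR were not analysed here. Of 5 fat body probe sets, 1 was called higher in rbf120a, where 1.5% of all probe sets were, and 0 were called in the other groups. It was apolpp, at 4.74 in Canton S and 5.31 in rbf120a, inside the odorant receptor range. Lsp2 went from 6.41 in Canton S to 7.69 in rbf120a and did not pass. The list's mean in single arrays was 6.20 to 6.93 in Canton S and 6.42 to 7.51 over the mutant arrays. Of 11 blood cell probe sets, 5, 3 and 4 were called lower in rbf120a, wtsX1Lats and the double mutant, and 0 higher, where 1.48%, 2.53% and 2.39% of all probe sets were called lower. The others did not pass. Over all 11 the changes ran from -2.29 to 0.22, from -2.64 to 0.27 and from -2.33 to 0.28. Their medians were -1.47, -0.68 and -0.98, so falls that did not pass were also large. Their mean was 8.01 to 8.70 in the Canton S arrays, 7.15 to 7.29 in rbf120a, 7.30 to 7.60 in wtsX1Lats and 7.11 to 7.86 in the double mutant.

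The enzyme gene cn (2R) encodes kynurenine 3-monooxygenase, which makes the ommochrome precursor 3-hydroxykynurenine. It had the dimmest signal of the set: 4.27, 4.47 and 4.24 in the Canton S arrays, while the rbf120a arrays gave 4.24, 4.37 and 4.31, the wtsX1Lats arrays 4.50, 4.17 and 4.19 and the double mutant arrays 4.18, 4.34 and 4.37. All groups overlapped, and 8 to 13 of the 62 odorant receptor probe sets were dimmer. Its changes against Canton S were -0.02 (95% interval -0.22 to 0.18), -0.04 (-0.24 to 0.16) and -0.03 (-0.23 to 0.17). At such a signal a difference in RNA below the background of the array would not be seen.

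The pteridine transporter gene bw (2R) was read by 2 probe sets, both dim. The probe set 1628293_a_at was at 4.78, 4.68 and 4.86 in the Canton S arrays, while the rbf120a arrays gave 4.74, 4.80 and 4.76, the wtsX1Lats arrays 4.61, 4.66 and 4.81 and the double mutant arrays 4.65, 4.66 and 4.70. The double mutant arrays lay below those of rbf120a, as groups fail to overlap for 21.1% of all probe sets in that comparison, and the difference of -0.10 (95% interval -0.24 to 0.04) did not pass. The other probe set, 1629540_a_at, was at 4.76, 4.91 and 4.88 in the Canton S arrays, while the rbf120a arrays gave 4.92, 4.76 and 4.90, the wtsX1Lats arrays 4.72, 4.77 and 4.99 and the double mutant arrays 4.80, 4.65 and 4.85, and its groups all overlapped. Over both probe sets the changes against Canton S ran from -0.11 (interval -0.25 to 0.04, 1628293_a_at in the double mutant) to 0.01 (-0.18 to 0.20, 1629540_a_at in rbf120a).

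The gene pr (2L) encodes 6-pyruvoyltetrahydropterin synthase, an early enzyme of the pteridine pathway that also serves the making of the cofactor tetrahydrobiopterin. It was the 1 bright member, at 10.31, 10.26 and 10.37 in the Canton S arrays, while the rbf120a arrays gave 10.61, 10.43 and 10.42, the wtsX1Lats arrays 10.10, 10.46 and 10.23 and the double mutant arrays 10.52, 10.54 and 10.44. These means lie at percentiles 87.2 to 89.1 of all probe sets. Both the rbf120a and the double mutant arrays lay above those of Canton S, and the differences of 0.17 ± 0.11 (SE; adjusted p = 0.701) and 0.19 ± 0.11 (adjusted p = 0.565) did not pass. Of all probe sets, 18.3% and 23.6% had groups that did not overlap in these 2 comparisons. The wtsX1Lats arrays were spread over 10.10 to 10.46, and the change from Canton S was -0.05 (95% interval -0.30 to 0.19). The largest pr difference was that of the double mutant over wtsX1Lats, 0.24 (-0.01 to 0.48, adjusted p = 0.662). The suffix of its probe set marks probes shared by more than 1 transcript, and the probe-to-gene table lists pr alone for it.

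The gene se (3L) encodes a glutathione transferase of the omega class that makes a late intermediate of the red drosopterins. It was at 5.38, 5.36 and 5.48 in the Canton S arrays, while the rbf120a arrays gave 5.34, 5.35 and 5.32, the wtsX1Lats arrays 5.50, 5.24 and 5.12 and the double mutant arrays 5.39, 5.29 and 5.41. Every rbf120a array lay just below those of Canton S, as groups fail to overlap for 18.3% of all probe sets in that comparison. The other groups overlapped with Canton S. The changes were -0.07 (95% interval -0.28 to 0.14), -0.12 (-0.33 to 0.09) and -0.04 (-0.25 to 0.16). The paralogs GstO1, GstO2 and GstO3 were bright, with means over the 12 arrays of 9.38 for GstO1, 11.73 and 10.09 for the 2 probe sets of GstO2 and 12.29 for GstO3. Of these 4 probe sets 0 passed in any of the 7 comparisons by limma. Under an unadjusted p of 0.05 were 2 of the 4 in wtsX1Lats against Canton S, 2 in rbf120a against wtsX1Lats, 1 in the double mutant against wtsX1Lats and 0 in the other 4 comparisons, where 3259, 2372 and 1415 of all 18769 probe sets were so in the first 3. Of the paralogs, GstO1 had the largest change of the 4 against Canton S, 0.32 ± 0.12 (SE; adjusted p = 0.161) in wtsX1Lats.

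Over the 6 probe sets, st thus accounted for every call. In the comparisons of the double mutant with rbf120a, of the double mutant with wtsX1Lats and of rbf120a with wtsX1Lats, 0 of 6 were called by limma, and 0 were under an unadjusted p of 0.05. Of all probe sets, 0.48%, 0% and 0.794% were called in these comparisons, and 1399, 1415 and 2372 were under an unadjusted p of 0.05. For rbf120a against wtsX1Lats, 149 were called, and 97 with the replicate number as a block. The median change of the 6 was -0.01 (rbf120a), -0.07 (wtsX1Lats) and -0.06 (double mutant) against Canton S, beside medians of 0.00, 0.02 and 0.00 over all probe sets. For the 5 probe sets other than that of st, the 95% intervals over all pairs of genotypes lay within -0.33 and 0.48. The plot of changes shows st apart from the others on the left and no filled symbol on the right.

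**Figure D3:**
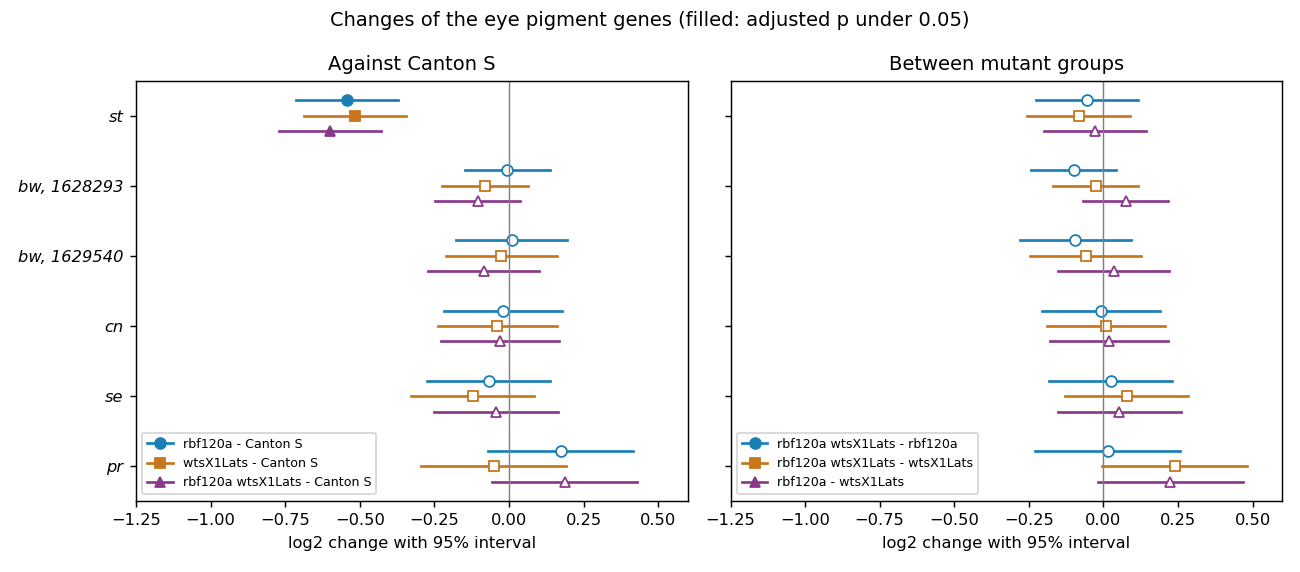
Log2 change (horizontal axis) with its 95% interval for each pigment probe set, against Canton S on the left and between mutant groups on the right; filled symbols passed at an adjusted p under 0.05. The 3 filled symbols are those of st, from -0.60 to -0.52.

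The pigment genes were then set beside other genes of the same pathways, 28 genes with 1 probe set each in 3 lists. Against Canton S, 1 was called higher and 1 lower in rbf120a, 2 higher and 2 lower in wtsX1Lats, and 1 higher and 2 lower in the double mutant. Of all probe sets, 1.5%, 1.6% and 1.68% were called higher, beside the shares called lower given for st. The median changes of the 28 were 0.00, 0.09 and -0.04. Between the mutant groups 0 were called. Of these 28, 27 had a mean above the highest odorant receptor mean.

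In the ommochrome list, 5 of 6 genes were on the table, and w was not analysed here. The gene kar, named for the eye colour of its mutants, fell in all 3 mutant groups. It was at 8.75, 8.16 and 8.33 in the Canton S arrays. The rbf120a arrays gave 7.64, 7.70 and 7.59, the wtsX1Lats arrays 7.58, 7.55 and 7.70 and the double mutant arrays 7.26, 7.61 and 7.29. All Canton S arrays lay above all others. Taken singly, these comparisons had groups that did not overlap for 18.3%, 17.3% and 23.6% of all probe sets. The falls were 0.77 ± 0.16 (SE; adjusted p = 0.0210), 0.80 ± 0.16 (adjusted p = 0.0142) and 1.02 ± 0.16 (adjusted p = 0.00290). Leaving out Canton S replicate 1, the kar calls in rbf120a and wtsX1Lats ended (adjusted p = 0.0952 and 0.0648). The rbf120a call also ended without any 1 of its own replicates (0.0664 to 0.0917), and the wtsX1Lats call in a fit over these groups alone (0.136) and without wtsX1Lats replicates 1 and 3 (0.0922).

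Rab32, the gene known as lightoid, encodes a GTPase of pigment granule formation. It was at 9.31, 9.10 and 9.58 in the Canton S arrays, while the rbf120a arrays gave 9.17, 8.94 and 8.76, the wtsX1Lats arrays 8.60, 8.52 and 7.87 and the double mutant arrays 8.28, 8.77 and 8.41. It fell by 1.00 ± 0.21 (SE; adjusted p = 0.0203) in wtsX1Lats and by 0.85 ± 0.21 (adjusted p = 0.0448) in the double mutant, and its change of -0.38 in rbf120a did not pass (adjusted p = 0.610). The double mutant call held under 8 of 20 alternatives, with an adjusted p of up to 0.182 without the double mutant's replicate 1, and that in wtsX1Lats under 16 of 20, with up to 0.127 without wtsX1Lats replicates 1 and 3. Without wtsX1Lats replicate 3 alone, Rab32 fell by 0.77 in wtsX1Lats (adjusted p = 0.0254). With the replicate number as a block the Rab32 adjusted p in the double mutant was 0.0661. The Rab32 probe set, like that of pr, has the suffix for probes shared by more than 1 transcript, and Rab32 alone is listed for it. The other genes of the list did not pass: cd, which encodes a peroxidase of ommochrome synthesis and was dim like se (5.07 to 5.42 in the group means), the kynurenine formamidase gene KFase, and ca.

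**Figure D4:**
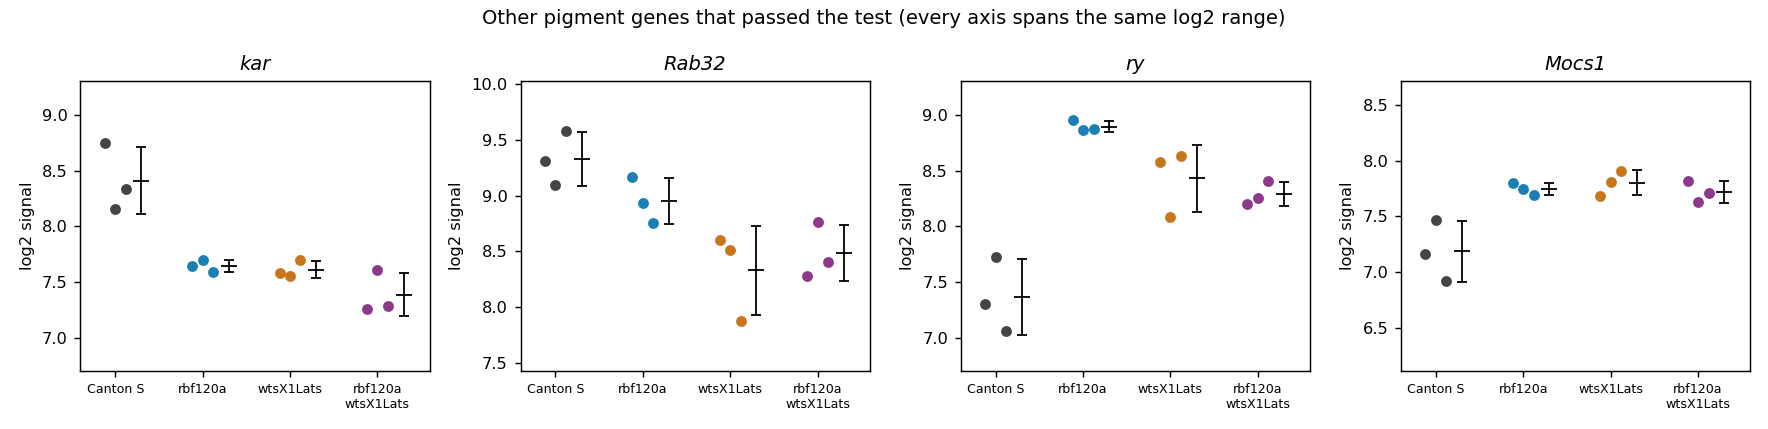
Log2 signal (vertical axis) of the 4 other pigment genes that passed the test in at least 1 comparison with Canton S, in each array by genotype, with the mean and SD beside the points. The Canton S arrays of kar lie above, and those of ry below, all mutant arrays. In single comparisons with Canton S, groups fail to overlap for 17.3% to 23.6% of all probe sets.

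In the pteridine and cofactor list, 10 of 12 genes were on the table, and 2 passed in at least 1 comparison, both higher. The gene ry encodes xanthine dehydrogenase, a purine and pteridine enzyme. It was at 7.30, 7.73 and 7.06 in the Canton S arrays. The rbf120a arrays gave 8.95, 8.86 and 8.87, the wtsX1Lats arrays 8.58, 8.08 and 8.63 and the double mutant arrays 8.20, 8.26 and 8.41. All mutant arrays thus lay above all Canton S arrays. Taken singly, these comparisons had groups that did not overlap for 18.3%, 17.3% and 23.6% of all probe sets. The rises were 1.53 ± 0.19 (SE; adjusted p = 0.000546), 1.07 ± 0.19 (adjusted p = 0.00630) and 0.93 ± 0.19 (adjusted p = 0.0141). The ry call in wtsX1Lats ended in a fit over these groups alone (adjusted p = 0.0889) and without wtsX1Lats replicates 1 and 3 (0.147). The one in the double mutant ended when Canton S replicate 1 (0.0654), Canton S replicate 3 (0.0507) or the double mutant's replicate 3 (0.0775) was left out.

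Mocs1, which acts in making the molybdenum cofactor that xanthine dehydrogenase carries, was at 7.16, 7.47 and 6.92 in the Canton S arrays, while the rbf120a arrays gave 7.80, 7.75 and 7.69, the wtsX1Lats arrays 7.68, 7.81 and 7.91 and the double mutant arrays 7.82, 7.63 and 7.71. It rose by 0.62 ± 0.14 (SE; adjusted p = 0.0327) in wtsX1Lats, a call that held under 8 of 20 alternatives, with an adjusted p of up to 0.261 in a fit over these groups alone and 0.0531 with the replicate number as a block. Its changes of 0.56 in rbf120a (adjusted p = 0.0631) and 0.53 in the double mutant (adjusted p = 0.0639) did not pass, and each passed under 8 of 20 alternatives. The other 8 did not pass, among them the GTP cyclohydrolase gene Pu, the sepiapterin reductase gene Sptr and cl, a thioredoxin-like gene of the drosopterin branch that was bright at 11.98 to 12.30 in the group means. The nearest was the pterin carbinolamine dehydratase gene Pcd, at -0.51 ± 0.15 (SE; adjusted p = 0.0834) in the double mutant.

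The granule delivery list holds genes whose products carry cargo to lysosomes and pigment granules, such as the AP-3 adaptor subunits g, cm, rb and or and the tethering subunits dor, car and lt. All 13 were on the table and 0 were called in any of the 7 comparisons by limma. Under an unadjusted p of 0.05 were 5 of the 13 in rbf120a against wtsX1Lats (cm, rb, or, dor and lt), 3 in the double mutant against wtsX1Lats (rb, or and Blos2), 3 in wtsX1Lats against Canton S (g, lt and Blos1), 1 for the interaction (Blos1) and 0 in the other 3 comparisons. Of all 18769 probe sets, 2372, 1415, 3259 and 1681 were so in the first 4 of these. The median changes against Canton S were -0.10, 0.08 and -0.03. The most negative was g in wtsX1Lats, at -0.56 ± 0.23 (SE; adjusted p = 0.215), and the most positive Blos1 in wtsX1Lats, at 0.41 ± 0.14 (adjusted p = 0.123).

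**Figure D5:**
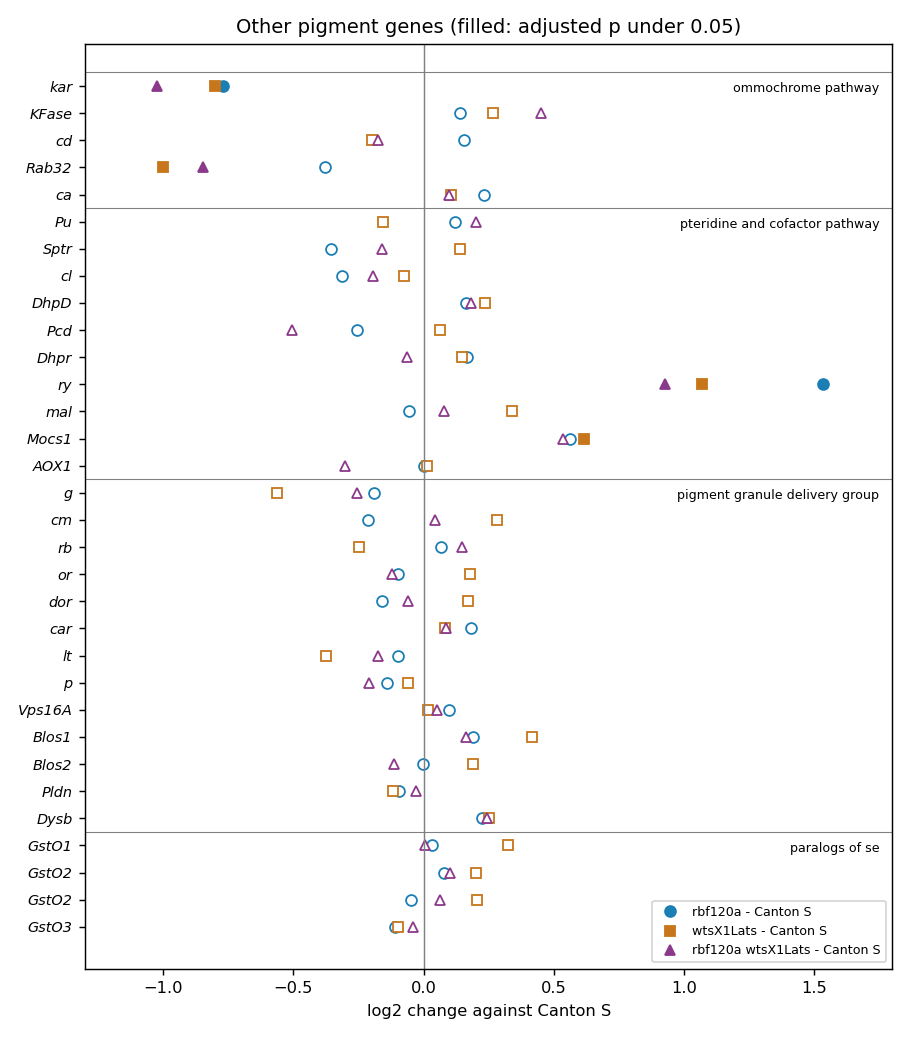
Log2 change against Canton S (horizontal axis) of 28 other pigment genes and of the paralogs of se, by list; filled symbols passed at an adjusted p under 0.05. The filled symbols are those of kar and Rab32 on the left, from -1.02 to -0.77, and of ry and Mocs1 on the right, from 0.62 to 1.53.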

How the data were processed

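The values, as deposited by the authors, are log2 signals of 18952 probe sets, 183 of them controls. That they are log2 was inferred from their range, and the summary and normalization are not given in the sources used here. Per the labels' protocols, biotin-labelled cRNA was made from Trizol-extracted total RNA. Names came from the platform annotation, and chromosome arms, gene order and synonyms from a RefSeq gene table (Release 6 plus ISO1 MT). All probe sets that are not controls entered 1 fit of 4 group means with limma 3.58.1 in R 4.3.3 (lmFit, eBayes with a variance trend), with 8 residual degrees of freedom and Benjamini-Hochberg adjustment over 18769 probe sets. Every adjusted p is from limma. The fit was tested on simulated data. The members, the lists and the rule for named genes (all member probe sets, called list genes, 3 genes of like pattern, 2 neighbours a side) were chosen with earlier results of these data known. The replicates are called biological, but the labels do not say that they came from separate animals. The p-values set differences of means against the spread between these samples, which may not be the spread between animals. The correlations of deviations from the group means between same-numbered arrays ran from -0.27 to 0.26, with 7 of 18 above 0.1. All 3 were above 0.1 for rbf120a with wtsX1Lats (0.198, 0.238 and 0.197) and for no other groups. For rbf120a with the double mutant they were -0.260, -0.273 and 0.259. The 3 values of 2 groups are not independent, as deviations from a mean of 3 arrays sum to 0. Whether the numbers pair any groups was not tested. The fit reported has no term for the number, and the replicate block is an alternative. The labels name nothing that a number shares. The number of arrays limits the precision. Sequences of the genes were not used here.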

Additional observations from a re-analysis of the deposited data

Results flagged for a closer look

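The interaction of ry was -1.67 ± 0.26 (SE, adjusted p = 0.0102 by limma). The change of ry from wtsX1Lats to the double mutant thus differed from that from Canton S to rbf120a. Whether the mutant stocks share a background with Canton S is not stated. An effect of the alleles and a difference between stocks therefore cannot be told apart. The rise of ry was 1.53 from Canton S to rbf120a, while ry in the double mutant was at 8.20, 8.26 and 8.41 and in wtsX1Lats at 8.58, 8.08 and 8.63. Over 19 alternatives the adjusted p ranged from 0.000528 to 0.0785, and the interaction was not called without wtsX1Lats replicates 1 and 3 (-1.33).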

How the results depend on the processing

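The 6 pigment probe sets gave the same calls in every single-array omission: 1 to 1 called in each mutant group against Canton S and 0 to 0 in the other 4 comparisons. The filter on dim probe sets (mean above the median of all) left only pr of the members, so 0 were called, st not being tested. The st call in wtsX1Lats was lost (0 called) in a fit over these 2 groups alone, and also (0 called) when wtsX1Lats replicates 1 and 3 were left out, which was added after seeing the data and in which the lone array is assumed to vary like the other groups. The replicate block changed no call of the members; the adjusted p of st was then 0.00700, 0.00838 and 0.00375 in rbf120a, wtsX1Lats and the double mutant.

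Counts over all probe sets moved more. Leaving out single arrays gave 278 to 802 for rbf120a, 364 to 1769 for wtsX1Lats and 366 to 1180 for the double mutant when set against Canton S, 25 to 201 when the double mutant was set against rbf120a, 0 to 26 for it against wtsX1Lats, 31 to 908 for rbf120a against wtsX1Lats and 83 to 187 for the interaction. In the same order, array weights (gene-by-gene estimate, the default one having failed to converge) gave 2023, 2541, 3146, 574, 62, 998 and 582, against 559, 774, 764, 90, 0, 149 and 158 in the fit reported. Without wtsX1Lats replicates 1 and 3 the counts were 969, 387, 1611, 331 and 8 for the first 5 comparisons and 99 for the interaction. Fits over 2 groups alone gave 252 for wtsX1Lats and 1244 for the double mutant when set against Canton S, 556 when the double mutant was set against rbf120a and 16 for rbf120a against wtsX1Lats. The replicate block gave 97 for rbf120a against wtsX1Lats. The cause of these shifts was not tested.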

Other observations

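Markers of cells that later carry pigment or surround the ommatidia (8 genes, 11 probe sets) had 0 calls against Canton S in each mutant group, with median changes of -0.22 (rbf120a), -0.37 (wtsX1Lats) and -0.34 (double mutant). The cell adhesion gene rst was bright, at 11.40 to 11.94 in the group means, and the prepattern gene lz was at 8.73 to 9.12. Of 13 eye disc probe sets, 0 were called in rbf120a. In wtsX1Lats 1 was called higher and 3 lower, and in the double mutant 3 higher and 3 lower. The lower ones in both were the photoreceptor genes gl, sens and sev. The higher ones were Optix in wtsX1Lats and, in the double mutant, ey, Optix and 1 probe set of toy. The other toy probe sets did not pass. Of all probe sets, 1.5%, 1.6% and 1.68% were called higher in rbf120a, wtsX1Lats and the double mutant. Of 5 brain and glia probe sets 0, 2 (repo, ase) and 3 (repo, dpn, ase) were lower in rbf120a, wtsX1Lats and the double mutant, where 1.48%, 2.53% and 2.39% of all probe sets were called lower. Of 6 gut probe sets 1, 1 and 0 were lower and 1, 0 and 0 higher, and of 6 antennal disc probe sets 0, 1 and 0 were lower. Of 7 salivary gland, 3 muscle and 4 trachea probe sets 0 were called.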
